A study of Mus musculus with 6 samples.

Results

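The enzymes that build cholesterol and fatty acids, together with the proteins that switch their genes on, were examined in lenses of newborn mice with a conditional knockout of Celf1 in the lens. The set was given as 42 gene symbols and was matched to the symbol column of the deposited expression table. All 42 symbols were found among the 13931 genes of the table, and 38 of them had an average log2 CPM (CPM, counts scaled to a common library size) above 1. The members were divided into 5 regulators, 19 genes of the sterol branch and 18 genes of the fatty acid branch. The choice of members did not use measured values, but it was made when results of these data were already known.

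RNA was sequenced from whole P0 lenses of 3 Control and 3 Celf1cKO libraries, and a pair of lenses was pooled for each library. Celf1cKO mice carried a germline knockout allele, Celf1lacZKI, a Celf1flox allele and the Pax6GFPCre transgene, which drives Cre recombinase from the lens placode stage onward. The labels give the controls as Celf1lacZKI/+, whereas the study's methods say that Celf1flox animals lacking Cre served as controls where nothing else was noted, so the control genotype is not settled. If the labels hold, control lenses also had a germline knockout allele. All mice were P0 and of a mixed C57BL/6J and FVB background.

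Celf1 binds RNA and controls splicing, stability and translation of its targets. Animal cells make cholesterol from acetyl-CoA through mevalonate, squalene and lanosterol, and make fatty acids from the same acetyl-CoA through malonyl-CoA. Both branches are switched on by the SREBP transcription factors, which are held in the endoplasmic reticulum with their escort Scap by the Insig proteins when sterols are plentiful and are released when sterols run low. The fiber cells of the lens have membranes of an unusually high cholesterol content, and inherited or drug-induced blocks of cholesterol synthesis are known to be linked to cataract.

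SREBP proteins bind sterol regulatory elements in promoters and act there together with the factors NF-Y and Sp1, so promoter sequences of the genes on which the results turn are shown. RefSeq windows on GRCm38.p6, from 250 bases before to 50 bases after a transcription start, were available for 35 of the 42 members. The 250 bases before the start are printed 5′ to 3′ on the strand of the gene for the 3 members called elevated, Hmgcs1 (chr13:119690101-119690350, plus strand), Acly (chr11:100528001-100528250, minus strand) and Acss2 (chr2:155517793-155518042, plus strand). Cyp51 (chr5:4104698-4104947, minus strand) is shown as a sterol gene of similar length-adjusted level that was not called. Capitals mark the letters TCACNCCAC of a sterol regulatory element and CCAAT of an NF-Y site, on either strand.
Hmgcs1: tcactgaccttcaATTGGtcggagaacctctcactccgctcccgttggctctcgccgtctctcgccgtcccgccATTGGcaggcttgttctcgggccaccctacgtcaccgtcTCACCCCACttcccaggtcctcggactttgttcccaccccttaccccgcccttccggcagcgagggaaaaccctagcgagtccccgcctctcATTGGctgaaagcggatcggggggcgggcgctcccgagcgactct
Acly: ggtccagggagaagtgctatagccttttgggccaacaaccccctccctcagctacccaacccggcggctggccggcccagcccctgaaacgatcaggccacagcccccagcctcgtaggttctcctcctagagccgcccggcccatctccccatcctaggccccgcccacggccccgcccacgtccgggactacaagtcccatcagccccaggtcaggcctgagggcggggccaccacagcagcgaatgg
Acss2: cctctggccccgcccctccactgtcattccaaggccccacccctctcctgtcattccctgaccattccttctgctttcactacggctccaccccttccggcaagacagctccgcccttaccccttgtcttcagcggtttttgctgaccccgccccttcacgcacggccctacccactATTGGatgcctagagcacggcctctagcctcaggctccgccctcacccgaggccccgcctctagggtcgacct
Cyp51: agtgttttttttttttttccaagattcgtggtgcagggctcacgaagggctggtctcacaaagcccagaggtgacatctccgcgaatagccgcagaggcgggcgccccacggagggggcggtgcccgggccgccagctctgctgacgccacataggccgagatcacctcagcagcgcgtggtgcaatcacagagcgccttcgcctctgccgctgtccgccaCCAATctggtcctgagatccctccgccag

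The Hmgcs1 promoter held TCACNCCAC with its first base at -137 and CCAAT, read as ATTGG, at -237, -176 and -45, counted from the start as 0. A further ATTGG lay at 10, beyond the printed stretch. The Acss2 promoter held ATTGG at -73 and the Cyp51 promoter held CCAAT at -29. These positions count from the RefSeq starts. The gene positions of GENCODE M21 put the start of Acss2 at 155517948 and that of Cyp51 at 4104746, inside the printed stretches. By that annotation both of these matches lie within the gene and not before its start. In Acly the only CCAAT of the window lay at 37, again beyond the printed stretch. Over the whole windows, CCAAT or ATTGG occurred in 14 of 15 sterol genes, 10 of 15 fatty acid genes and 4 of 5 regulators, against 43% of the genes of the table with a window and 37.4% of all windows. TCACNCCAC occurred in 2 of the 35 members, Hmgcs1 and Acsl1, against 1.4% of the genes of the table and 1.24% of all windows. GGGCGG, the core of an Sp1 site, occurred in 14 sterol genes, 10 fatty acid genes and all 5 regulators, against 67.7% of the genes of the table and 35.7% of all windows, and CACGTG, an E-box, in 3, 2 and 2, against 11.6% and 7.15%. In the 4 windows of the printed genes no match overlapped another. These are matches of letters and not mapped binding sites. Sterol genes that were called and sterol genes that were not both held CCAAT, as Hmgcs1 and Cyp51 show.

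The length-adjusted levels of the members, given as CPM per kb of exon, spanned a wide range in control lenses. Scd2, the stearoyl-CoA desaturase with the highest level, stood at 264 ± 57.8 CPM per kb (SD, n = 3). Next came Hmgcs1, the cytosolic HMG-CoA synthase that starts the mevalonate route, at 23.0 ± 6.00, and then Cyp51, the lanosterol demethylase, at 19.4 ± 2.07, Insig1 at 18.5 ± 9.02 and Fdft1, the squalene synthase, at 18.3 ± 1.05. These last 4 genes did not differ beyond their spread, since the control ranges of Hmgcs1, from 17.1 to 29.1, and of Cyp51, from 17.9 to 21.7, overlapped. Below them stood Acly, the ATP citrate lyase that makes cytosolic acetyl-CoA, at 15.0 ± 1.39, Fads1 at 14.6 ± 2.18 and Fasn, the fatty acid synthase, at 13.3 ± 0.757. At the other end, Scd1 stood at 0.42 ± 0.112 and Acss2 at 0.29 ± 0.0370. Elovl7, Fdps, Acacb and Acsl6 were lower still, at 0.19, 0.116, 0.111 and 0.0578 CPM per kb. These are the 4 members with an average log2 CPM not above 1. Fdps shares 1124 of its 4208 exon bases with Gm43738 on the same strand, so its level is uncertain. Exon bases of all transcripts were used, 10163 for Acss2 against 2931 in its longest protein-coding transcript. For Scd1 they were 4892 against 4832, so the order of Acss2 and Scd1 is uncertain. In Celf1cKO lenses Hmgcs1 stood at 45.2 ± 11.2 and Scd2 at 269 ± 35.6 CPM per kb.

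**Figure D1:**
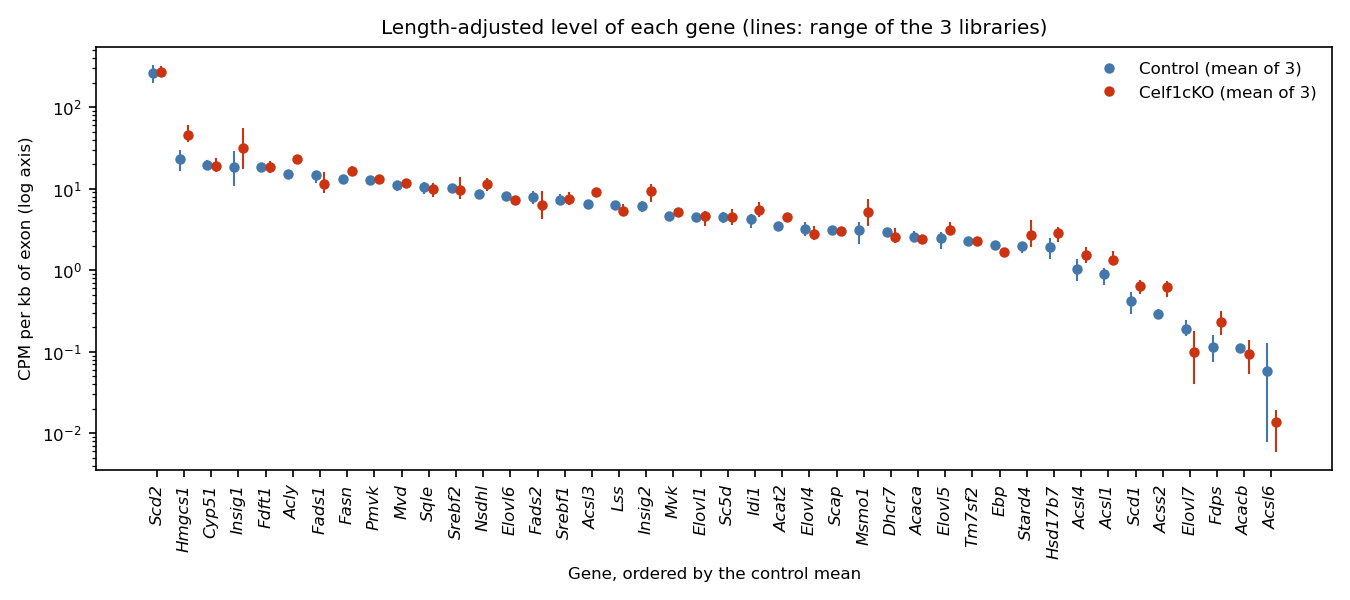
Mean level of each of the 42 members in CPM per kb of exon, on a log axis, ordered by the control mean, with control in blue, Celf1cKO in red and lines for the range of the 3 libraries of a group. Scd2 stood far above the other members at 264 CPM per kb, and Acsl6 was lowest at 0.0578.

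In the comparison of Celf1cKO with control lenses, 3 members were elevated and none was reduced. The elevated genes were Hmgcs1 in the sterol branch and Acly and Acss2 in the fatty acid branch. Calls required an adjusted p-value under 0.05 (limma, Benjamini-Hochberg over the whole table), an absolute log2 fold-change over 0.58 and an average log2 CPM over 1. By this rule 4.77% of all genes were called elevated and 2.63% reduced, or 6.24% and 3.44% of the genes above the expression threshold. The 3 of 42 members (7.14%) lay close to this background. An adjusted p-value under 0.05 alone was reached by 4 members, against 11.9% of all genes. No member was called reduced, and none had an unadjusted p-value under 0.05 on the reduced side, where 13.7% of all genes did. On the elevated side 12 members (28.6%) had an unadjusted p-value under 0.05, against 16.3% of all genes. Among genes above the expression threshold these shares were 14.4% on the reduced and 19.6% on the elevated side. The 3 Celf1cKO libraries all lay above the 3 controls in 13 members (31.0%) and all below them in 1 (2.38%). The shares were 19.5% and 17.0% of all genes, and 23.1% and 16.9% of genes above the expression threshold. The median log2 fold-change was 0.04 over the 42 members and -0.04 over all genes. The lenses were measured as whole tissue, in which a change in the number of cells of a type and a change in RNA per cell cannot be told apart.

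**Figure D2:**
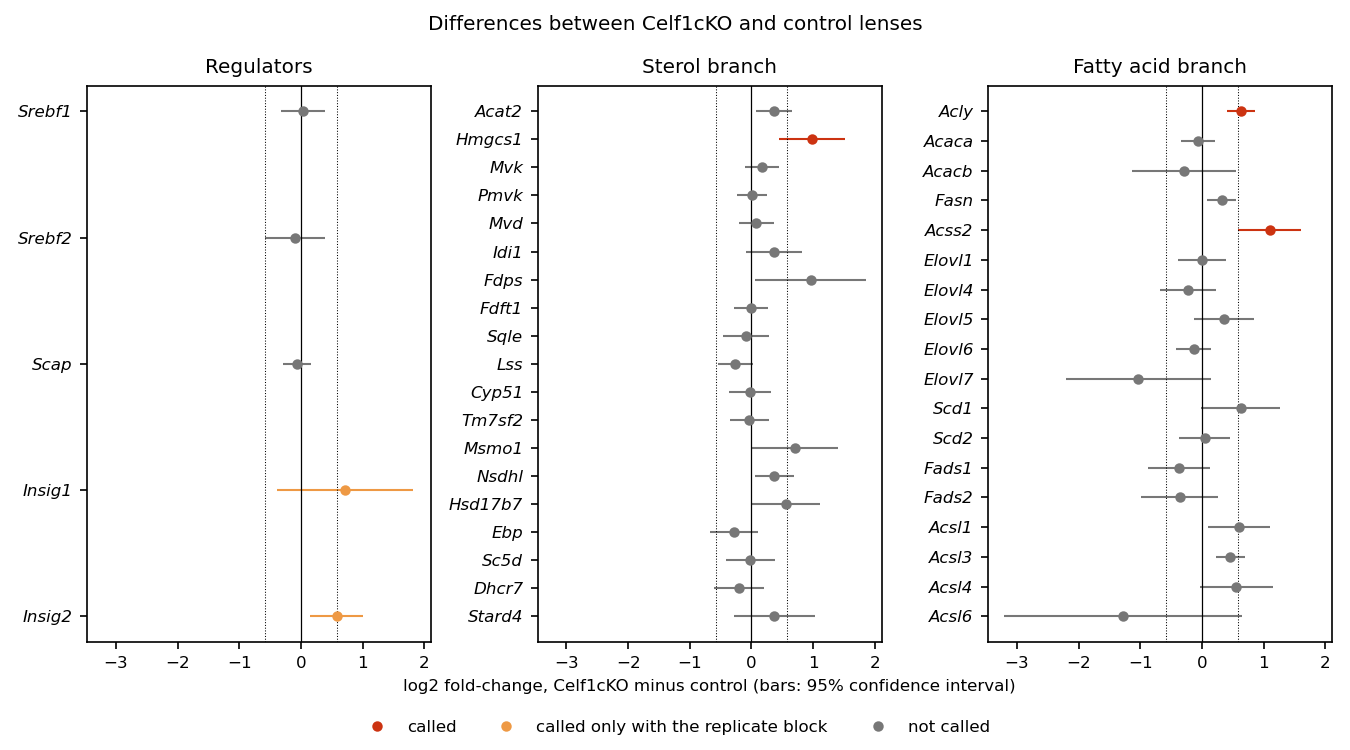
Log2 fold-change (Celf1cKO minus control) with its 95% confidence interval for each member, in red where called, in orange where called only with the replicate number as a block, and in grey where not called. Dotted lines mark a log2 fold-change of 0.58 in either direction, and Hmgcs1, Acly and Acss2 are the red points.

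Among the regulators, the SREBP genes themselves did not pass the test. Srebf1, which encodes the SREBP that mainly drives fatty acid genes, had log2 CPM values of 5.58, 5.20 and 5.23 in controls and of 5.63, 5.31 and 5.18 in Celf1cKO lenses, given here and below in the order of libraries 1 to 3. Srebf2, which encodes the SREBP that mainly drives sterol genes, had 6.31, 6.02 and 6.22 in controls and 6.59, 5.90 and 5.78 in Celf1cKO lenses. Scap, the escort that carries SREBP to the Golgi, had 4.51, 4.50 and 4.64 in controls and 4.47, 4.52 and 4.49 in Celf1cKO lenses. For each of these genes the groups overlapped. The log2 fold-changes were 0.04 for Srebf1 (95% confidence interval -0.32 to 0.40), -0.09 for Srebf2 (-0.58 to 0.40) and -0.06 for Scap (-0.28 to 0.17), and the last 2 turned above 0 when libraries were scaled by total reads. These intervals leave room for a change of up to 0.58 in Srebf2.

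The Insig genes, whose products hold SREBP in the endoplasmic reticulum, had higher means in Celf1cKO lenses, and their calls depended on whether replicate numbers were used as a block. Insig1 (chr5:28071363-28078662), itself a classical SREBP target, had log2 CPM values of 6.46, 5.10 and 5.63 in controls and 7.40, 6.14 and 5.78 in Celf1cKO lenses. The groups overlapped, and library 1 was the highest of each group. The log2 fold-change was 0.71 with a standard error of 0.47, and the adjusted p-value by limma was 0.346. With the replicate number as a block the standard error was 0.18, the adjusted p-value 0.0496 and the gene was called, with differences of 0.94, 1.05 and 0.15 within the 3 numbers. Without Celf1cKO library 1 the difference was 0.23. Insig2 (chr1:121304353-121332589) had 4.22, 4.59 and 4.45 in controls and 4.62, 5.27 and 5.11 in Celf1cKO lenses, where every Celf1cKO library lay above every control. Its log2 fold-change of 0.58 had a standard error of 0.18 and an adjusted p-value of 0.0835 without the block and 0.0249 with it, and only the latter passed all thresholds. Insig2 also passed without Celf1cKO library 1, at 0.77 and an adjusted p-value of 0.0123. That fit called 1039 genes of the table elevated and 877 reduced, against 664 and 366 with all libraries. With the block 5.43% of all genes were called elevated and 3.75% reduced, and the members called were 5, the 3 of the comparison without it and both Insig genes.

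In the sterol branch Hmgcs1 was the gene that was elevated. Hmgcs1 (chr13:119690379-119708260, ENSMUSG00000093930) had log2 CPM values of 7.06, 6.30 and 6.71 in controls and 8.06, 7.49 and 7.46 in Celf1cKO lenses, from 2926 to 11465 reads per library. All 3 Celf1cKO libraries lay above the controls, with Celf1cKO library 1 highest and Control library 2 lowest. The log2 fold-change was 0.98 with a standard error of 0.23, a 1.97-fold difference, and the adjusted p-value by limma was 0.0363. The call held in 2 of 6 fits that each left out a library. It was lost without Control library 2 (0.78, adjusted p-value 0.109), Control library 3 (0.99, 0.0990), Celf1cKO library 2 (1.07, 0.0618) or Celf1cKO library 3 (1.08, 0.0947), and also without the variance trend (0.0836), while the direction stayed the same in all of these fits. Calls fell over the whole table in these library fits, to 1 gene without Control library 2 or without Celf1cKO library 3. Without Control library 3, 321 genes were elevated and 117 reduced, and without Celf1cKO library 2, 305 and 131. With all libraries these counts were 664 and 366. Of the 4594 exon bases of Hmgcs1, 557 are shared with the gene Gm48342 on the opposite strand.

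The genes that lead from acetyl-CoA to farnesyl pyrophosphate all had log2 fold-changes above 0, and Hmgcs1 alone among them was called. For these 7 genes the values ran from 0.01 to 0.98 with a median of 0.36, and 46.4% of all genes had a value above 0. Pmvk turned below 0 under median centring (-0.01), quantile normalization (-0.02), scaling without crystallin genes (-0.01) and without Control library 1 or Celf1cKO library 1 (-0.03 and -0.04), and Mvd without Control library 3 (-0.01). Acat2, which condenses acetyl-CoA, stood at 0.36 and Idi1, the isopentenyl diphosphate isomerase, at 0.37, with adjusted p-values of 0.103 and 0.244. The kinases and the decarboxylase of mevalonate lay nearer to 0, at 0.17 for Mvk, 0.01 for Pmvk and 0.08 for Mvd. Fdps, the farnesyl diphosphate synthase, stood at 0.96 but rested on 12 to 56 reads per library, was below the expression threshold and shares 1124 exon bases with Gm43738 on the same strand. Idi1 has 22.6% of its transcript near-identical to Gm13502, so its level is uncertain, as is that of Fdps.

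The 3 squalene genes had log2 fold-changes below 0. Sqle, the squalene epoxidase that controls flux after mevalonate, had log2 CPM values of 5.87, 5.62 and 6.05 in controls and 5.98, 5.81 and 5.48 in Celf1cKO lenses. The groups overlapped and the order within the numbers was mixed. The log2 fold-change was -0.09 with a 95% confidence interval of -0.46 to 0.28, and this interval did not overlap that of Hmgcs1 (0.45 to 1.51). It did overlap those of Mvk (-0.11 to 0.45), Pmvk (-0.23 to 0.25) and Mvd (-0.20 to 0.36), so the contrast holds for Hmgcs1 and not for the mevalonate steps as a group. Fdft1 stood at -0.01 and Lss, the lanosterol synthase, at -0.26, and none of the 3 passed the test. Fdft1 and Sqle turned above 0 under scaling by total reads, and Lss did not.

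The 8 genes that turn lanosterol into cholesterol were mixed, and none was called. Msmo1, the sterol C4 methyl oxidase, had 4.37, 3.73 and 4.54 log2 CPM in controls and 5.46, 4.86 and 4.45 in Celf1cKO lenses. Library 3 alone ran against the other numbers, and the groups overlapped. Its log2 fold-change was 0.71 with an unadjusted p-value by limma of 0.0456 and an adjusted p-value of 0.158. Hsd17b7, the ketosteroid reductase of the same C4 demethylation complex, had 3.63, 2.85 and 3.39 in controls and 4.09, 3.91 and 3.53 in Celf1cKO lenses. The groups overlapped by Control library 1 against Celf1cKO library 3, and the log2 fold-change was 0.56 with an adjusted p-value of 0.164. Nsdhl, the dehydrogenase of that complex, stood at 0.37 with all Celf1cKO libraries above the controls and an adjusted p-value of 0.118. The other genes of these steps lay at or below 0, with Cyp51 at -0.03, Tm7sf2 at -0.03, Sc5d at -0.02, Dhcr7 at -0.21 and Ebp, the sterol isomerase, at -0.28. Of these, Cyp51, Tm7sf2, Sc5d and Dhcr7 turned above 0 under scaling by total reads. Tm7sf2 shares 532 of its 4403 exon bases with Vps51 on the same strand. Ebp was the member with all Celf1cKO libraries below the controls, at an adjusted p-value of 0.303. Stard4, a sterol carrier, stood at 0.37 with overlapping groups.

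**Figure D3:**
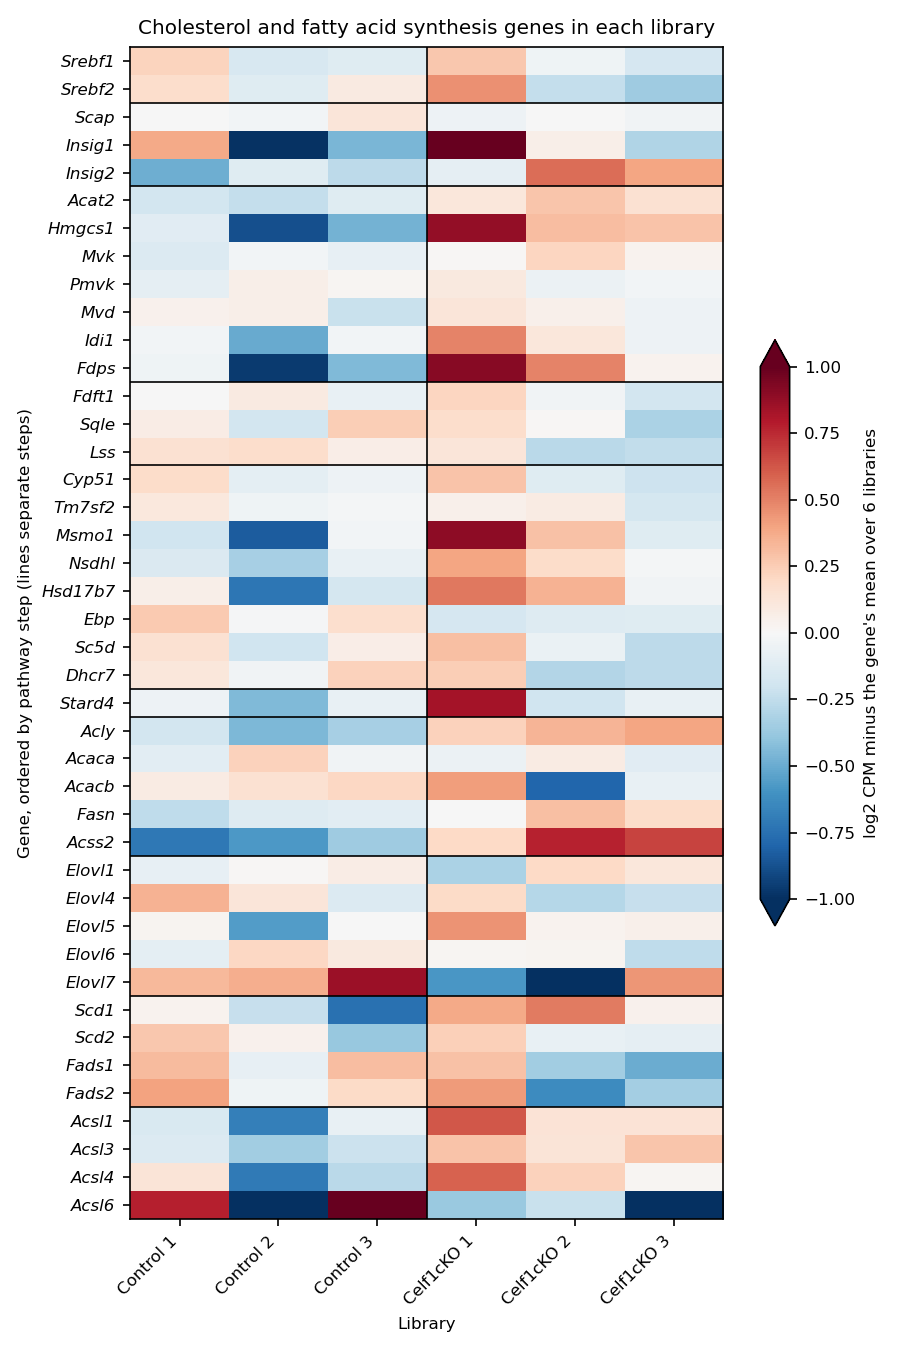
Level of each member in each library as log2 CPM minus the mean of the gene over the 6 libraries, with genes in pathway order, horizontal lines between steps, red above and blue below the mean, and colours saturated at 1 in either direction. Celf1cKO library 1 is the reddest column of the sterol genes, and Control library 2 the bluest.

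In the fatty acid branch the genes that supply acetyl-CoA were elevated. Acly (chr11:100476353-100528000, ENSMUSG00000020917) had log2 CPM values of 6.44, 6.18 and 6.29 in controls and 6.85, 6.97 and 7.02 in Celf1cKO lenses. The groups were separate, and the spread within each was small. The log2 fold-change was 0.64 with a standard error of 0.10, a 1.56-fold difference, and the adjusted p-value by limma was 0.0131, the lowest of the 42 members. The call was lost without Control library 2 (0.58, adjusted p-value 0.0573) and without Celf1cKO library 3 (0.60, 0.0784). In either fit 1 gene of the whole table was called. Under quantile normalization the log2 fold-change of 0.55 fell short of the threshold.

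Acss2 (chr2:155517948-155585724, ENSMUSG00000027605), the acetyl-CoA synthetase that uses acetate, had 1.41, 1.55 and 1.77 log2 CPM in controls and 2.32, 2.89 and 2.80 in Celf1cKO lenses. Again all Celf1cKO libraries lay above the controls. The log2 fold-change of 1.10 had a standard error of 0.22 and an adjusted p-value by limma of 0.0232, on 100 to 358 reads per library. The call held in 1 of the 6 fits that left out a library, the one without Celf1cKO library 1 (1.27, 0.00867), and the adjusted p-value was 0.0699 without Control library 1, 0.0819 without Control library 2, 0.0529 without Control library 3, 0.0776 without Celf1cKO library 2 and 0.116 without Celf1cKO library 3. The fit without Celf1cKO library 1 called 1039 genes of the table elevated and 877 reduced, against 664 and 366 with all libraries. Fits without Control library 2 or Celf1cKO library 3 called 1 gene each. Of the 10163 exon bases of Acss2, 927 are shared with genes on the opposite strand. Among them is Gss, the glutathione synthetase, which had 18149 to 38814 reads per library and stood 0.45 higher on the log2 scale in Celf1cKO lenses (adjusted p-value 0.0815). The library kit kept strand, but the strand setting of the counting is not given in the sources used here, and the share of Gss reads in Acss2 was not tested.

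The genes that turn acetyl-CoA into fatty acids did not pass all thresholds. Fasn had log2 CPM values of 7.09, 7.22 and 7.24 in controls and 7.35, 7.64 and 7.53 in Celf1cKO lenses. Its groups did not overlap, but the difference was modest, with a log2 fold-change of 0.32, a 95% confidence interval of 0.09 to 0.56 and an adjusted p-value by limma of 0.0780. Acaca, the acetyl-CoA carboxylase that makes malonyl-CoA, had 5.30, 5.63 and 5.37 in controls and 5.34, 5.49 and 5.29 in Celf1cKO lenses. These groups overlapped throughout, with a log2 fold-change of -0.06 that turned above 0 under scaling by total reads, and 64.3% of the Acaca transcript is near-identical to Gm5182, so its level is uncertain. Acacb, the mitochondrial carboxylase, stood at -0.29 on 26 to 56 reads.

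Among the desaturases, Scd2 stood far above Scd1 in level. Scd2 had log2 CPM values of 10.76, 10.54 and 10.11 in controls and 10.73, 10.42 and 10.40 in Celf1cKO lenses, with a log2 fold-change of 0.04 and a 95% confidence interval of -0.38 to 0.46, and its groups overlapped. Scd1 had 1.38, 1.12 and 0.60 in controls and 1.73, 1.87 and 1.39 in Celf1cKO lenses. Its groups were separate by a narrow margin, and the log2 fold-change of 0.63 had an adjusted p-value by limma of 0.174. Fads1 and Fads2, the desaturases of polyunsaturated fatty acids, stood at -0.37 and -0.36 and were not called (adjusted p-values 0.294 and 0.398). Without Celf1cKO library 1 both were called reduced, at -0.60 (0.0297) and -0.67 (0.0344). Calls rose over the whole table in that fit, to 877 reduced and 1039 elevated genes, against 366 and 664 with all libraries.

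The elongases, which lengthen fatty acids, were not called. Elovl1 stood at 0.00, Elovl4 at -0.22, Elovl5 at 0.36 and Elovl6 at -0.13 on the log2 fold-change scale, while Elovl7, on 8 to 38 reads, stood at -1.03. Of the acyl-CoA synthetases, which activate fatty acids for use, 3 of 4 had log2 fold-changes above 0 and none was called. Acsl3 (chr1:78657825-78707743) had log2 CPM values of 4.93, 4.72 and 4.85 in controls and 5.35, 5.19 and 5.34 in Celf1cKO lenses. The groups were separate with little spread. The log2 fold-change of 0.46 had an adjusted p-value by limma of 0.0307, but it lay below the fold-change threshold. When each library was left out in turn, the Acsl3 difference ran from 0.41 to 0.51, with an adjusted p-value under 0.05 in 1 of 6 fits. Acsl3 shares 244 of its 4357 exon bases with Utp14b on the same strand. Acsl1 stood at 0.60 (adjusted p-value 0.112), with all Celf1cKO libraries above the controls, and Acsl4 at 0.56 (0.189). Acsl6 stood at -1.28 on 3 to 48 reads.

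**Figure D4:**
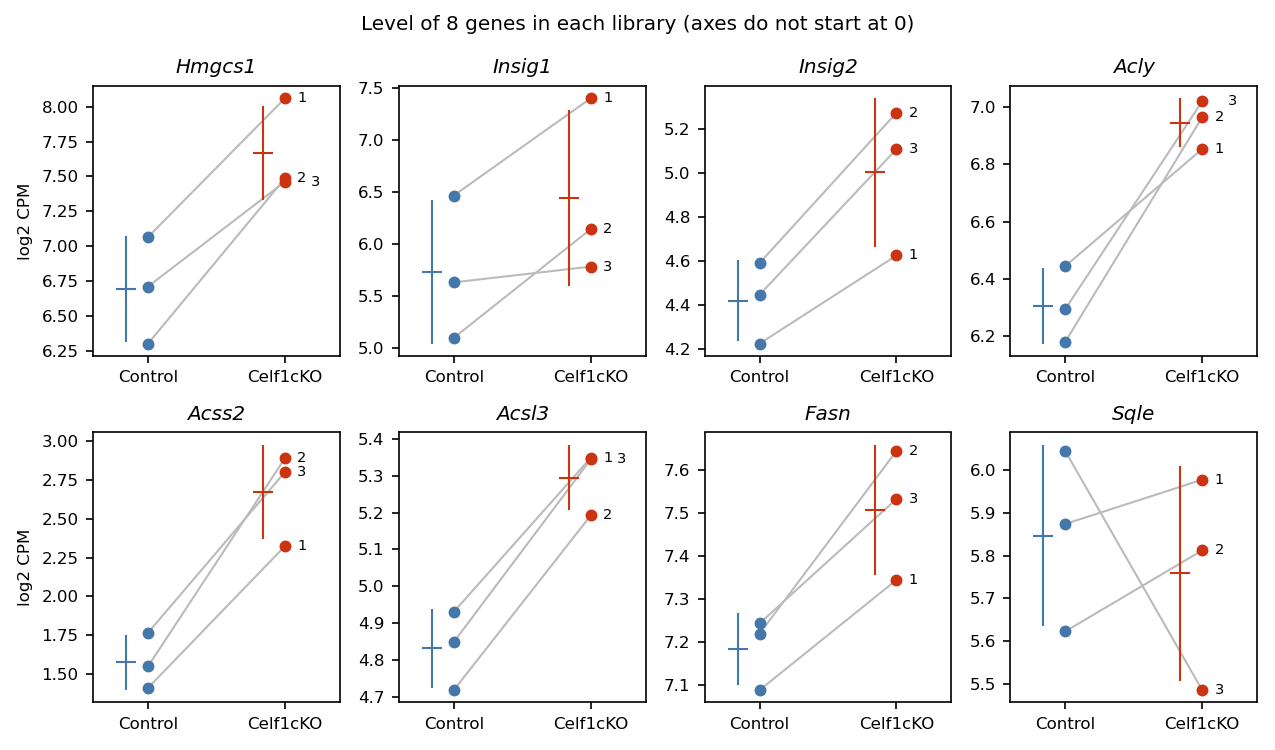
Log2 CPM of 8 members in each library, with grey lines joining libraries of the same replicate number, numerals giving that number, and dashes with bars for the mean and SD of each group. The Celf1cKO points lie above all control points for Hmgcs1, Insig2, Acly, Acss2, Acsl3 and Fasn, and overlap them for Insig1 and Sqle.

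The 2 branches were compared by their counts and medians, which describe the lists and are not a test between them. In the sterol branch 1 of 19 members (5.26%) and in the fatty acid branch 2 of 18 (11.1%) were called elevated, beside 4.77% of all genes. The groups did not overlap on the elevated side in 5 sterol (26.3%) and 7 fatty acid members (38.9%), beside 19.5% of all genes. Among genes above the expression threshold 6.24% were called elevated and 23.1% did not overlap on that side. Log2 fold-changes lay above 0 in 11 of 19 and 9 of 18, with medians of 0.08 and 0.02. Among members with an average log2 CPM above 1 the medians were 0.05 over 18 sterol genes and 0.32 over 15 fatty acid genes, beside 0.00 over all genes above that level, so the order of the 2 medians changed when 4 members of few reads were left out. It also changed with all members under quantile normalization, at 0.05 for sterol and 0.12 for fatty acid members. Scaling by total reads moved the median of these expressed genes to 0.23, turned 12 of the 19 members below 0 to above it, and gave 3 sterol, 4 fatty acid and 1 regulator calls, all elevated. In the whole table that scaling put 89.1% of calls on the elevated side, against 64.5% without it.

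The order of the libraries was then compared within each branch. The mean deviation of the 19 sterol members from their own averages was 0.01, -0.27 and -0.06 log2 CPM in controls and 0.34, 0.06 and -0.09 in Celf1cKO lenses. Celf1cKO library 1 was the highest of its group in 15 of 19 sterol members, against 40.9% of all genes, and in 9 of 18 fatty acid members. Control library 2 was the lowest control in 14 of 19 sterol members, against 30.2% of all genes, and in 8 of 18 fatty acid members. The sterol values of the groups overlapped, since Celf1cKO library 3 lay below Control library 1. For the 18 fatty acid members the means were 0.05, -0.21 and 0.07 in controls and 0.17, -0.06 and -0.03 in Celf1cKO lenses, which overlapped as well. The 15 fatty acid members of higher expression had -0.01, -0.21 and -0.13 against 0.24, 0.10 and 0.03, with every Celf1cKO library above every control. The median SD within a group was 0.21 for sterol and 0.28 for fatty acid members, against 0.18 for all genes with an average log2 CPM above 1. Celf1 itself was also highest in library 1 of the Celf1cKO group, at 8.93 log2 CPM against 7.66 and 7.83. Summed markers of lens epithelium, at 217 CPM against 50.3 and 172, and of endothelium, at 88.5 against 20.6 and 41.9, were highest there too. So were the sums for blood, adipocytes, and corneal and skin epithelium. The sums for macrophages (2.561 against 2.635 and 3.878) and pigmented epithelium (4.983 against 8.81 and 20.71) were lowest there. That of Schwann cells with oligodendrocytes was lowest there as well (2.655 against 2.82 and 3.066). Retinal neuron markers were highest in library 3 (9.177 against 2.934 in library 1). The part of these levels in the sterol values was not tested.

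**Figure D5:**
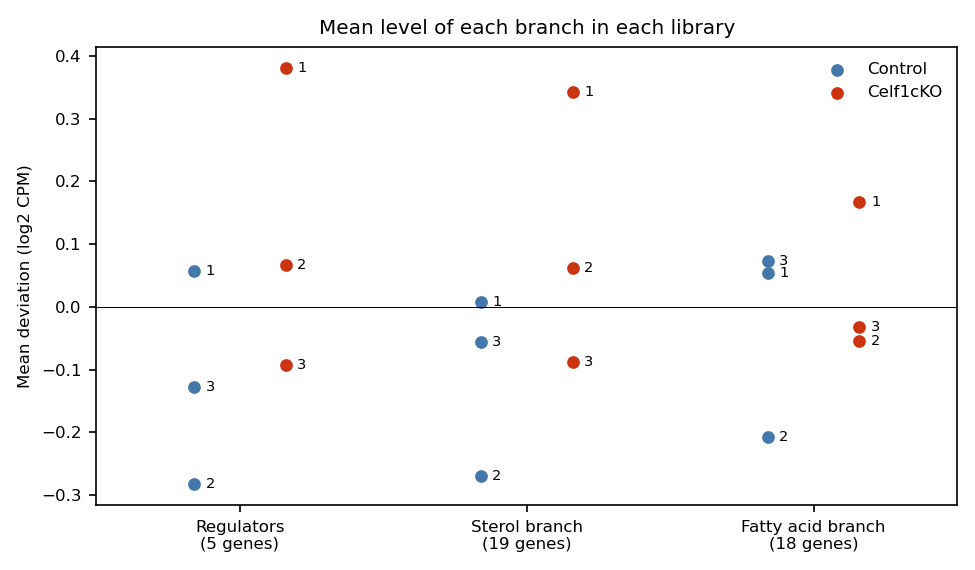
Mean deviation of the members from their own averages over the 6 libraries, in log2 CPM, for regulators, sterol branch and fatty acid branch, with controls in blue, Celf1cKO in red and the replicate number beside each point. In the sterol branch Celf1cKO library 1 lies highest at 0.34 and Control library 2 lowest at -0.27, and the other libraries of the groups overlap.

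Further genes of sterol metabolism were read from lists that did not hold the members. Of 19 other genes of SREBP processing and sterol synthesis found in the table, 1 (5.26%) was elevated and none reduced, beside 4.77% and 2.63% of all genes. Spring1, which is needed for SREBP processing, had log2 CPM values of 4.48, 4.66 and 4.57 in controls and 5.08, 5.65 and 5.57 in Celf1cKO lenses, a log2 fold-change of 0.86 with an adjusted p-value by limma of 0.0193. Of 21 genes of sterol uptake, export and esterification, 2 (9.52%) were elevated and none reduced. Soat1, which esterifies cholesterol, had 3.38, 3.49 and 3.75 in controls and 4.20, 5.27 and 5.01 in Celf1cKO lenses (1.29, adjusted p-value 0.0268), and Lipa, the lysosomal lipase that frees it again, differed by 0.96 (0.0268).

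A further list held genes beside the fatty acid branch. Of 22 other genes of fatty acid supply, elongation, desaturation and activation in the table, 4 (18.2%) were elevated and none reduced, beside 4.77% and 2.63% of all genes. Scd3, a further stearoyl-CoA desaturase, stood at -1.75 with an adjusted p-value by limma of 0.0312 and separate groups, and lay below the expression threshold on 19 to 94 reads. Thrsp, a lipogenic protein induced by thyroid hormone, had log2 CPM values of 1.08, 1.30 and 2.14 in controls and 3.93, 5.75 and 4.37 in Celf1cKO lenses, a log2 fold-change of 3.17 with an adjusted p-value by limma of 0.0134. Slc25a1, the carrier that exports citrate from mitochondria as the substrate of Acly, had 3.71, 3.42 and 3.66 in controls and 5.22, 5.80 and 5.71 in Celf1cKO lenses (1.98, adjusted p-value 0.00855). Me1, the malic enzyme that supplies NADPH, differed by 0.94 (0.0134) and Hsd17b12, the ketoacyl reductase of elongation, by 0.62 (0.0137). For Thrsp and Slc25a1 the lowest Celf1cKO library lay well above the highest control. Slc27a4, a fatty acid transporter with acyl-CoA synthetase activity, differed by 0.79 and was called with the replicate block only (0.0889 without it, 0.0360 with it).

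The 6 libraries held 40694454 to 44387151 counted reads, and 3 reads corresponded to 0.0609 to 0.0807 CPM. Celf1, the targeted gene, stood at 9.95, 9.94 and 9.34 log2 CPM in controls and 8.93, 7.66 and 7.83 in Celf1cKO lenses, a log2 fold-change of -1.60 with an adjusted p-value by limma of 0.0269. Crystallins took 45.8% to 46.9% of reads in controls and 34.7% to 38.5% in Celf1cKO lenses. Among 6 measured lens fiber markers, Bfsp1 and Gja3 were reduced, and their summed level was 24590 to 34410 CPM in controls and 19650 to 20870 in Celf1cKO lenses. Among 4 measured lens epithelial markers, Foxe3 and Pdgfra were reduced, with sums of 278 to 332 and 50.3 to 217 CPM. The 5 endothelial markers, none called, summed to 75.1 to 91.0 and 20.6 to 88.5 CPM. Of 5 adipocyte markers 1 was in the table, and it summed to 0.0254 to 0.392 and 0 to 0.256 CPM, while macrophage markers, 3 of 5 in the table, summed to 2.15 to 5.49 and 2.56 to 3.88 CPM. Of the 5 markers each for blood, retinal neurons, pigmented epithelium, corneal and skin epithelium, and Schwann cells with oligodendrocytes, 1, 3, 4, 2 and 2 were in the table and none was called. Fiber, epithelial and crystallin levels moved with the groups, and their part in the lipid gene differences was not tested.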

How the data were processed

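RNA-seq of P0 mouse lenses comprised 3 Control and 3 Celf1cKO libraries, grouped by their labels. Trimmed reads were aligned by the authors to GRCm38.p6 (STAR 2.7.8a), unique reads were counted per gene (featureCounts 2.0.0) and genes of very low CPM were removed. The authors normalized with edgeR and deposited one log2 CPM value per gene and library, with a small prior count (lowest value -4.41). The authors' mean log2 CPM column set the expression threshold. The fold-change, p-value and F score columns that the authors deposited from their own comparison were not used.

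Since deposited values were on the log2 scale, limma 3.58.1 in R 4.3.3 was fitted with a variance trend (prior degrees of freedom 3.395), in place of the study's count test, over all 13931 genes, with Benjamini-Hochberg adjustment. Calls needed adjusted p-values under 0.05, absolute log2 fold-changes over 0.58 and a mean log2 CPM over 1, which 10640 genes had. Whole reads were recovered for 100% of values and used for depth and a voom fit. The labels do not state that libraries of a group came from separate litters, so p-values measure the spread between these libraries. The labels share replicate numbers between groups, and deviations from group means of same-numbered libraries correlated at 0.26, 0.39 and 0.38 over 13931 genes, so a block by number was fitted as an alternative.

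Members and lists were chosen with earlier results of these data known. Every-library values were given for members with an adjusted p-value under 0.05, the 5 regulators, Hmgcs1, Sqle, Fasn, Acaca, Scd1 and Scd2, and the 3 expressed members of each branch with the largest fold-change. Of other lists at most 4 called genes each were named. Scd3, Slc27a4, Acaa2 and marker genes were named after their values were seen. Some genes of the other lists are not reported here. Exon lengths, overlaps and positions came from GENCODE M21, in which 13928 genes were found, near-identical stretches (99% over 150 bases) from blastn 2.17.0, promoters from RefSeq on GRCm38.p6, and figures from matplotlib 3.10.9 in Python 3.11.15. The procedure was tested on simulated data. Alternatives covered the block, variance model, pseudocount, scaling, thresholds, branch membership and leaving out each library.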

Additional observations from a re-analysis of the deposited data

How the results depend on the processing

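The replicate block added calls for Insig1 and Insig2 (2 regulators called) and changed no other call among the members or Celf1. Outside the members, it added Slc27a4 and Acaa2 among the genes named. No sterol or fatty acid member was called reduced in any fit with all libraries. Without the variance trend 0 sterol members were called, Celf1 at -1.60 missed the threshold (adjusted p-value by limma 0.0693), and 306 genes of the table were called elevated and 115 reduced, against 664 and 366. Under quantile normalization 1 fatty acid member was called. Scaling by total reads gave 3 sterol, 4 fatty acid and 1 regulator calls, medians of 0.31 (sterol) and 0.25 (fatty acid), and 1663 elevated and 204 reduced genes. At an adjusted p-value under 0.1, 1 regulator was called. The fatty acid median was 0.32 when either all genes or the members were limited to an average log2 CPM above 1. When each library was left out in turn, the sterol branch had 0 to 1 elevated and 0 to 0 reduced calls, the fatty acid branch 0 to 2 elevated and 0 to 2 reduced, and the regulators 0 to 1. The sterol median ran from 0.02 to 0.13, the fatty acid median from -0.03 to 0.07 and Celf1 from -1.99 to -1.36, with an adjusted p-value under 0.05 in 1 of 6 fits. Without Control library 2 or without Celf1cKO library 3, 1 gene of the table was called. Without Celf1cKO library 1, 1039 genes were called elevated and 877 reduced. Of the members, Acsl6 and Elovl7, both of few reads, and Insig1 had the widest intervals. Under quantile normalization the medians were 0.05 (sterol) and 0.12 (fatty acid).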

Other observations

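Genes that assemble glycerolipids and that oxidize fatty acids lie downstream of the acyl-CoA pool and were read as further lists, chosen with earlier results known. Of 26 glycerolipid and phospholipid genes in the table, 3 were elevated and 1 was reduced, beside 4.77% and 2.63% of all genes. Cds2, which makes CDP-diacylglycerol, had log2 CPM values of 5.45, 5.31 and 5.23 in controls and 6.11, 6.36 and 6.30 in Celf1cKO lenses, a log2 fold-change of 0.93 with an adjusted p-value by limma of 0.00898. The acyltransferases Agpat4 and Agpat5 differed by 0.84 (adjusted p-value 0.0472) and 0.78 (0.0153). Lpin1, a phosphatidate phosphatase, had 5.73, 6.11 and 6.10 in controls and 5.40, 5.28 and 5.20 in Celf1cKO lenses (-0.69, 0.0195). In all 4 genes the groups were separate.

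Of 24 fatty acid oxidation genes in the table, 1 (4.17%) was elevated and 2 (8.33%) were reduced, beside 4.77% and 2.63% of all genes. Cpt1a, which admits long-chain fatty acids to mitochondria, had log2 CPM values of 7.07, 7.55 and 7.63 in controls and 6.06, 5.40 and 5.39 in Celf1cKO lenses, a log2 fold-change of -1.80 with an adjusted p-value by limma of 0.00940. Decr1, the dienoyl-CoA reductase, differed by -0.61 (0.0493), and Acadvl, the very long-chain acyl-CoA dehydrogenase, by 0.59 (0.0277). Acaa2, the mitochondrial thiolase, stood at -1.07 and was called with the replicate block only (0.0662 without it, 0.0435 with it). In this list the enzymes did not share a direction.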
